A study of Mus musculus with 30 samples.

Results

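The genes described here encode enzymes and transporters that carry glucose to pyruvate, exchange pyruvate with lactate, pass pyruvate into the mitochondrion and store glucose as glycogen. They are 34 genes of the 36558 in the deposited table, chosen by name: Slc2a1 (glucose uptake), Hk1 and Hk2 (hexokinases), Gpi1, Pfkm, Pfkl, Pfkp, Aldoa, Aldoc and Tpi1 (upper glycolysis), Gapdh, Pgk1, Pgam1, Pgam2, Eno1, Eno3 and Pkm (lower glycolysis), Ldha, Ldhb and Slc16a1 (lactate), Pfkfb1 to Pfkfb4 (the bifunctional enzymes that set fructose 2,6-bisphosphate), Mpc1, Mpc2, Pdha1, Pdk1 and Pdk2 (entry of pyruvate into oxidation), and Gys1, Gbe1, Ugp2, Pygm and Pygb (glycogen). All 34 were found. Their expression was followed in 2 tissues, heart and white fat, of C57BL/6J males that received the F11 vector or the GFP vector. Both vectors were adeno-associated viruses of serotype 8 (AAV8), which carried either F11, the gene of the liver-made coagulation factor XI, or green fluorescent protein. All mice, those with GFP included, had 7 weeks of a high-fat diet together with l-NAME, which blocks nitric oxide synthase. They were 15 weeks old at the end. AAV8 is known to transduce mainly the liver. The sources used here give neither the promoter of the vectors nor the depot of the fat. There were 7 F11 and 6 GFP heart libraries and 8 F11 and 8 GFP adipose libraries.

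Glycolysis splits glucose into pyruvate in the cytosol, and several of its steps are run by isozymes, closely related enzymes from separate genes whose use differs between tissues. Muscle and heart use the muscle forms of phosphofructokinase, phosphoglycerate mutase and enolase and, in heart, the H form of lactate dehydrogenase. The heart draws most of its energy from fatty acids and holds glucose oxidation in check with pyruvate dehydrogenase kinases, whereas the white adipocyte uses glucose mainly to make glycerol 3-phosphate, lactate and fat.

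Libraries held 28064802 to 33022539 estimated counts in F11 hearts, 25751607 to 30591023 in GFP hearts, 16755479 to 26329117 in F11 adipose tissue and 15949550 to 22525275 in GFP adipose tissue. Nothing in the labels states that every library is another mouse, and the p-values below therefore reflect only how far these samples spread, technical variation included. The tissue labels were checked by summing marker genes. The 9 cardiomyocyte markers summed to 57882 to 76076 CPM (counts scaled to a common library total) in the hearts, and the 8 white adipocyte markers to 6255 to 11535 CPM in adipose tissue, against 440 to 582 CPM in the hearts. A pair of adipose libraries stood apart by cardiomyocyte or epididymis markers. The GFP library L140 held 6013 CPM of cardiomyocyte markers, with none of the 9 markers at 0, where the other 15 adipose libraries held 20.7 to 119.8 CPM. The F11 library L142 held 6299 CPM of 10 epididymis markers, where the other F11 adipose libraries held 0.505 to 19.8 CPM and the GFP ones 0.363 to 3.11 CPM. In heart, the F11 library L40 and the GFP library L8 had the highest sums of red cell markers, 5301 and 6050 CPM. Results that rest on these libraries are given with and without them. The 10 hepatocyte markers also varied widely in adipose tissue. They summed to 109 to 4908 CPM in F11 libraries, highest in L145, and to 143.5 to 5259 CPM in GFP libraries, highest in L136. Libraries high in these markers were left out only singly, and the part of hepatocyte RNA in the comparisons was not tested. In pieces of tissue, fewer cells of a type and less RNA per cell cannot be told apart.

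The comparison of GFP hearts with GFP adipose tissue shows which of the genes each tissue uses, without the F11 vector. Heart held more RNA of most of the pathway. In 5 of 10 steps with several isozymes among the 34 genes, the leading one of these was another gene than in adipose tissue. Of the 34 genes, 24 were higher and 6 lower in heart at an adjusted p under 0.05 by edgeR's quasi-likelihood test, which is 30 of 34. Over all 15578 genes tested, 81.4% were called, 37.7% as higher and 43.6% as lower in heart, so a call by itself sets these genes little apart from the rest. Without L140, 24 were higher and 7 lower, where 82.4% of all genes were called, 40.2% as higher and 42.2% as lower. The median log2 difference was 1.62 over the 34 genes and -0.09 over all genes tested. Levels of different genes are compared below as CPM per kb of merged exon length. Differences between the tissues are relative to the TMM scaling. Transcripts of the mitochondrial genome made up a mean of 33.6% of the counts in GFP hearts and 5.62% in GFP adipose tissue. With these left out, 24 of the 34 genes were again called higher and 6 lower.

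**Figure D1:**
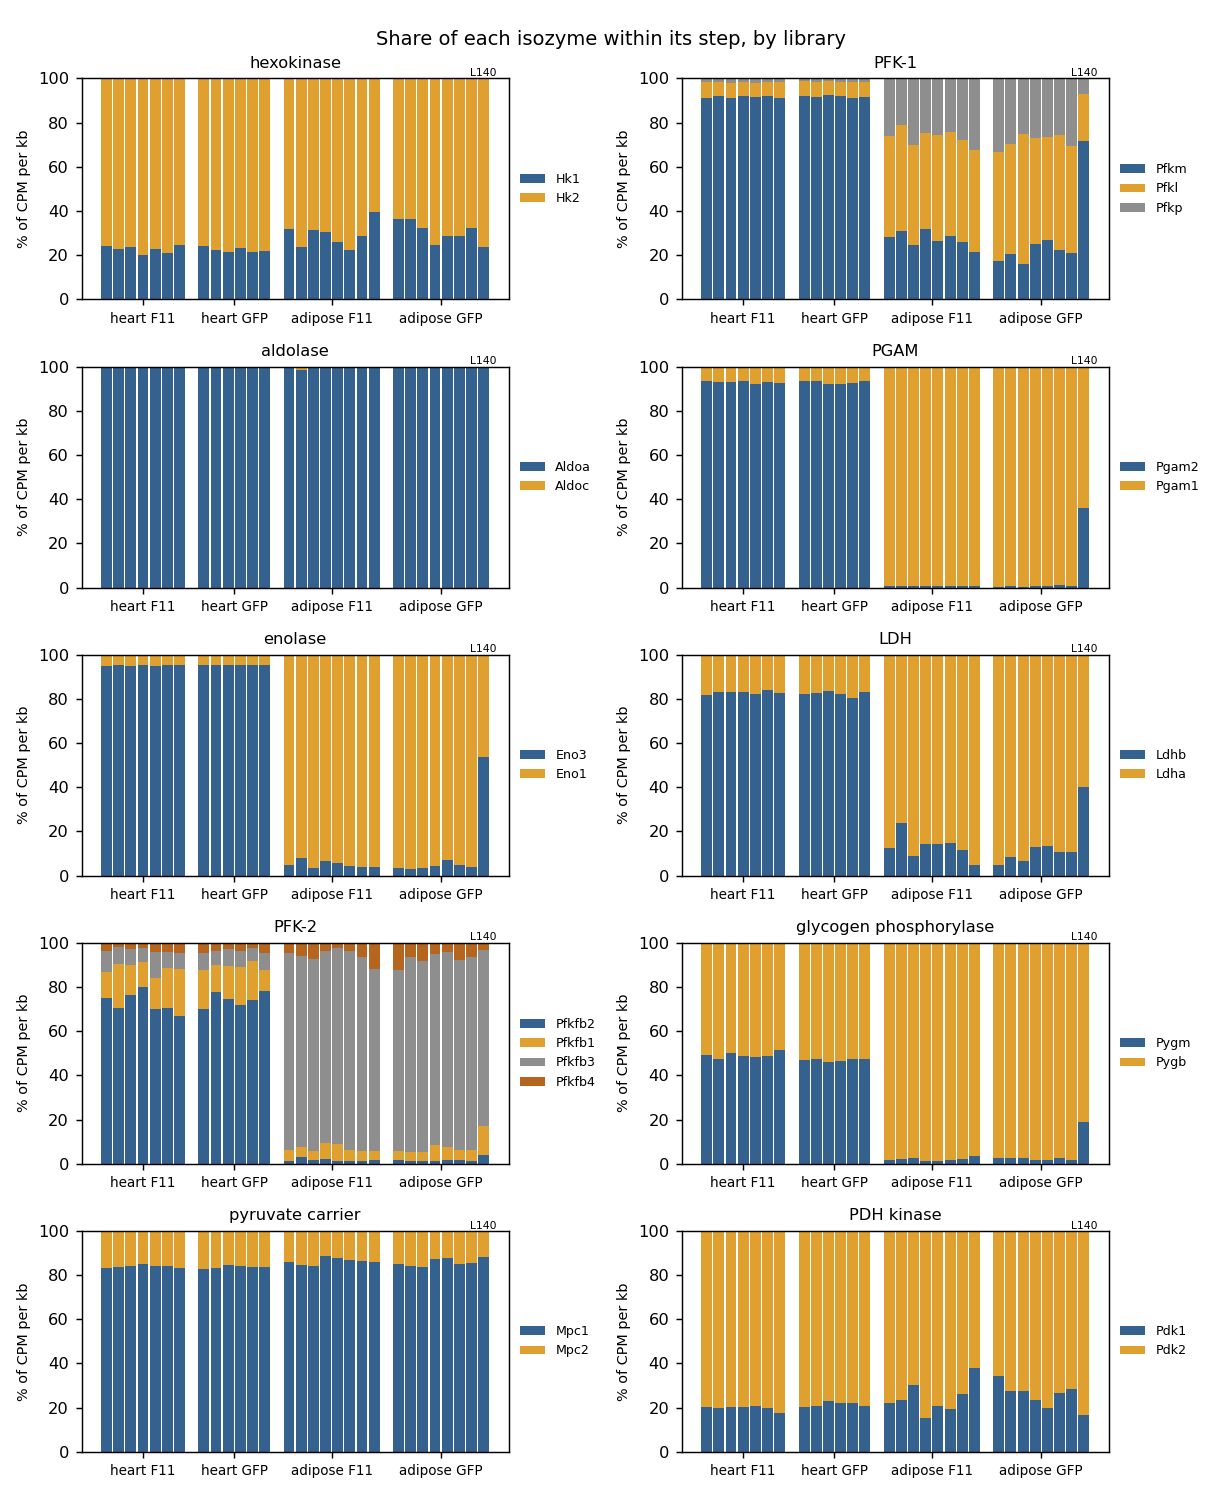
Share of each isozyme within its step, as a percentage of the summed CPM per kb of the isozymes (vertical axis, 0 to 100), for each library (one bar), grouped as heart F11, heart GFP, adipose F11 and adipose GFP. Pfkm, Pgam2, Eno3, Ldhb and Pfkfb2 fill most of the heart bars and a smaller part of the adipose bars. In the bars of L140, Pfkm holds 71.7%, Eno3 53.8%, Ldhb 40.3%, Pgam2 36.1% and Pfkfb2 3.91%.

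Phosphofructokinase 1 makes the committed step of glycolysis. Its muscle isozyme Pfkm (chromosome 15, 98092589 to 98132451 in GRCm38, like all coordinates here) had a lowest, median and highest level of 303, 311 and 317 CPM per kb in GFP hearts, against 3.63, 4.80 and 35.6 CPM per kb in GFP adipose tissue. The highest adipose value was that of L140, and without it the highest was 5.30 CPM per kb. The log2 difference was 5.20 (SE 0.57, adjusted p = 8.87e-07) with L140 and 6.14 (SE 0.10, adjusted p = 1.49e-15) without it. Pfkm made up a median of 91.8% of the phosphofructokinase 1 level in GFP hearts. In GFP adipose tissue the liver isozyme Pfkl led with 49.0%, the platelet isozyme Pfkp held 26.8% and Pfkm 21.6%. These shares depended on the gene length used. With the median transcript length Pfkm held 55.6% in GFP hearts and 2.76% in GFP adipose tissue, and with the length of the principal transcript 86.4% and 12.2%. By its scaled counts Pfkl was also higher in heart (log2 1.05, SE 0.10, adjusted p = 1.9e-07), whereas Pfkp did not pass the test with all libraries (log2 -0.16, 95% interval -0.40 to 0.08, adjusted p = 0.226) and was lower in heart without L140 (log2 -0.19, adjusted p = 0.0408).

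Phosphoglycerate mutase and enolase act late in glycolysis, and for both the tissues differed in the leading gene. The muscle mutase Pgam2 (chromosome 11, 5801640 to 5803733) had 371, 416 and 456 CPM per kb as lowest, median and highest in GFP hearts, and 0.365, 0.673 and 40.8 CPM per kb in GFP adipose tissue, where all libraries but L140 lay at or under 0.91 CPM per kb. Its log2 difference was 6.23 (SE 1.18, adjusted p = 0.000206), a 75.0-fold difference, and 9.44 (SE 0.14, adjusted p = 7.9e-16), or 694-fold, without L140. The general mutase Pgam1 (chromosome 19, 41911923 to 41918660) ran the other way, with 30.7, 31.9 and 35.1 CPM per kb in GFP hearts against 72.3, 91.5 and 100.2 CPM per kb in GFP adipose tissue (log2 -1.45, SE 0.07, adjusted p = 1.26e-10). The groups did not overlap for either gene, which was common here: 29.4% of all genes tested were higher and 31.3% lower in heart without overlap. Pgam2 made up 92.9% of the mutase level in GFP hearts, and Pgam1 99.2% in GFP adipose tissue. With the median transcript length, Pgam1 held 19.7% in GFP hearts.

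The enolases behaved alike. Muscle enolase Eno3 (chromosome 11, 70657202 to 70662513) had 442, 481 and 501 CPM per kb in GFP hearts against 2.06, 2.97 and 51.8 CPM per kb in GFP adipose tissue, the last value being L140 (log2 5.71, SE 0.85, adjusted p = 2.18e-05, and 7.37, SE 0.15, without L140). The general enolase Eno1 (chromosome 4, 150236721 to 150248879) had 21.5, 24.3 and 24.8 CPM per kb in GFP hearts against 44.4, 64.4 and 78.9 CPM per kb in GFP adipose tissue (log2 -1.42, SE 0.10, adjusted p = 7e-09). Eno3 thus held 95.3% of the enolase level in GFP hearts, and Eno1 95.8% in GFP adipose tissue. With the median transcript length, Eno1 held 14.1% in GFP hearts.

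Lactate dehydrogenase interconverts pyruvate and lactate. Ldhb, which encodes the H subunit of the heart enzyme (chromosome 6, 142490249 to 142507957), had 631, 667 and 707 CPM per kb in GFP hearts against 8.21, 18.5 and 83.3 CPM per kb in GFP adipose tissue (log2 4.77, SE 0.47, adjusted p = 2.6e-07, and 5.42, SE 0.21, without L140). Ldha, which encodes the M subunit, was at similar levels, 134.8, 138.5 and 171 CPM per kb in GFP hearts and 123, 156 and 175 CPM per kb in GFP adipose tissue, and the groups overlapped (log2 -0.05, 95% interval -0.22 to 0.12, adjusted p = 0.618). Slc16a1, the lactate and pyruvate transporter MCT1, was 3.68-fold higher in heart (log2 1.88, SE 0.12, adjusted p = 2.67e-09).

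The PFK-2 enzymes make and remove fructose 2,6-bisphosphate, the activator of phosphofructokinase 1. Pfkfb2, the heart form, had 15.4, 17.7 and 18.9 CPM per kb in GFP hearts against 1.17, 1.36 and 3.07 CPM per kb in GFP adipose tissue (log2 3.48, SE 0.20, adjusted p = 7.43e-10). Pfkfb3, the inducible form with high kinase activity (chromosome 2, 11471433 to 11554077), had 1.43, 1.65 and 1.76 CPM per kb in GFP hearts against 62.7, 83.2 and 92.3 CPM per kb in GFP adipose tissue. Its log2 difference of -5.62 (SE 0.12, adjusted p = 5.24e-14) was the most negative of the 34 genes, and it held 86.2% of the PFK-2 level in GFP adipose tissue against 7.43% in GFP hearts. Pfkfb4 (log2 -2.85, SE 0.28, adjusted p = 2.38e-07) and Pfkfb1, the liver and muscle form (log2 -0.69, SE 0.25, adjusted p = 0.0182), were also lower in heart.

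Glycogen phosphorylase releases glucose 1-phosphate from glycogen. The muscle isozyme Pygm had 179, 185 and 192 CPM per kb in GFP hearts against 0.576, 0.704 and 15.1 CPM per kb in GFP adipose tissue, where the highest library was again L140 (log2 6.22, SE 0.91, adjusted p = 1.89e-05, and 8.08, SE 0.10, without L140). The brain isozyme Pygb was higher in heart too (log2 2.57, SE 0.24, adjusted p = 1.16e-07). In GFP hearts the pair stood at 47.0% Pygm and 53.0% Pygb, and in GFP adipose tissue Pygb held 97.4% of the pair. With the median transcript length in place of the merged exon length, Pygm held 22.5% in GFP hearts. Glycogen synthase Gys1 (log2 1.30, SE 0.14, adjusted p = 9.17e-07) and Ugp2, which makes UDP-glucose (log2 1.65, SE 0.13, adjusted p = 2.17e-08), were higher in heart. The branching enzyme Gbe1 did not pass the test (log2 0.11, 95% interval -0.13 to 0.34, adjusted p = 0.414).

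All 5 genes of pyruvate entry were higher in heart. The pyruvate carrier subunits Mpc1 and Mpc2 were higher by 1.58 (SE 0.10) and 1.84 (SE 0.08) on the log2 scale, with adjusted p of 2.71e-09 and 2.46e-11. Pdha1, the E1 alpha subunit of pyruvate dehydrogenase, had 320, 337 and 359 CPM per kb in GFP hearts against 44.5, 47.6 and 91.5 CPM per kb in GFP adipose tissue (log2 2.66, SE 0.15, adjusted p = 6.1e-10). The kinases that switch this enzyme off, Pdk1 and Pdk2, were higher by 2.99 (SE 0.13) and 3.16 (SE 0.29) on the log2 scale, with adjusted p of 3.06e-11 and 1.17e-07. Neither the carrier step nor the kinase step changed its leading gene, with Mpc1 at 83.6% and 85.2% and Pdk2 at 78.5% and 72.9% in GFP hearts and GFP adipose tissue. These shares depended on the gene length too. With the principal transcript length, Mpc1 held 60.8% in GFP hearts and 63.6% in GFP adipose tissue. With the median transcript length, Mpc1 held 70.0% and 72.5%, and Pdk1 held 32.4% and 39.5% of the kinase pair.

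Hexokinase traps glucose in the cell by phosphorylating it. Hk2, the insulin-responsive form, had 61.0, 64.0 and 67.4 CPM per kb in GFP hearts against 9.21, 10.9 and 16.8 CPM per kb in GFP adipose tissue (log2 2.47, SE 0.12, adjusted p = 8.83e-11), and Hk1 was higher in heart as well (log2 1.92, SE 0.06, adjusted p = 9.82e-13). Hk2 led Hk1 in both tissues by merged exon length. The order of this pair, as of Pfkl and Pfkp in adipose tissue, depended on the gene length used, while the other leading isozymes were the same under 3 definitions of length. Slc2a1, the general glucose transporter GLUT1, was at 3.13, 3.59 and 4.18 CPM per kb in GFP hearts and 2.54, 3.23 and 3.97 CPM per kb in GFP adipose tissue and did not pass the test (log2 0.15, 95% interval -0.06 to 0.36, adjusted p = 0.197).

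The enzymes shared by all cells were also higher in heart. The log2 difference was 1.45 for Gpi1, which isomerizes glucose 6-phosphate (SE 0.06), 1.42 for the aldolase Aldoa (SE 0.09), 1.69 for Gapdh (SE 0.08), 1.16 for the kinase Pgk1 (SE 0.06), 1.79 for pyruvate kinase Pkm (SE 0.11) and 0.40 for triose phosphate isomerase Tpi1 (SE 0.11). The highest adjusted p among them was 0.00372, that of Tpi1. Aldoc, the brain aldolase, was at 0 to 0.086 CPM per kb in GFP hearts and 0.164 to 0.864 CPM per kb in GFP adipose tissue (log2 -3.25, SE 0.56, adjusted p = 8.02e-05), so Aldoa held over 99% of the aldolase level in both. Ordered by level per merged exon length, Aldoa (708 CPM per kb at the median), Ldhb (667), Eno3 (481), Gapdh (475) and Pgam2 (416) led in GFP hearts, where the range of Aldoa overlapped that of Ldhb and the range of Eno3 overlapped those of Gapdh and Pgam2, while Gapdh lay wholly above Pgam2. In GFP adipose tissue the order was Aldoa (269), Ldha (156), Gapdh (151), Tpi1 (142.5) and Pgam1 (91.5), where Aldoa lay above the rest, the ranges of Ldha, Gapdh and Tpi1 overlapped, and so did those of Tpi1 and Pgam1. This order depended on the gene length. In GFP hearts, with either other length, Gapdh ranked above Aldoa and Pgam2 was not among the first 5. With the median transcript length, Ldhb was not among the first 5 either, and Pdha1 and Pkm came next after Aldoa. In GFP adipose tissue, with either other length, Gapdh ranked above Ldha and Eno1 stood among the first 5 in place of Pgam1.

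Some of these genes have near-identical copies, processed pseudogenes whose reads the authors' pseudoalignment has to divide by estimation. Of the stretches of 31 bases in Gapdh transcripts 27.2% occur in transcripts of other genes, in Pgk1 54.7%, in Pgam1 37.1% and in Eno1 28.5%, and none do in Hk1, Pgam2, Eno3 or Slc16a1. The summed copies of Gapdh held a median of 24.8% of the joint CPM in F11 hearts and 26.8% in GFP hearts, against 12.6% in F11 and 9.90% in GFP adipose tissue. With the copies added, the log2 difference between GFP hearts and GFP adipose tissue was 1.99 for Gapdh, 1.23 for Pgk1 and -1.58 for Eno1, and none of the 34 genes lost or gained a call in this comparison or in heart.

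Which of these genes differ with the F11 vector was asked first in heart. Hk1 was 1.19-fold higher in F11 hearts, and it was the only one of the 33 genes tested that passed (1 of 33, with 1 higher and 0 lower). Over all 14684 genes, 0.872% were called, 0.518% were called higher and 0.354% lower. The other values were small. The log2 fold change was positive for 25 of 33 genes, where 47.5% of all genes tested had a positive one, and ranged from -0.15 to 0.25, with a median of 0.07 against -0.01 over all genes tested. An unadjusted p under 0.05 was reached by 10 genes, all with a positive fold change, where 12.5% of all genes reached it, 6.22% in that direction and 6.24% in the other. Aldoc did not pass the filter on low counts in heart.

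Hk1 encodes the hexokinase found in most tissues, which binds to the outer mitochondrial membrane (chromosome 10, 62268855 to 62379908, minus strand, ENSMUSG00000037012). It had 167 CPM at the lowest, 196 at the median and 204 at the highest in F11 hearts, against 150, 160 and 164 CPM in GFP hearts. All 7 F11 libraries lay above all 6 GFP libraries, which 0.586% of all genes tested showed. The log2 fold change was 0.25 (SE 0.05, adjusted p = 0.0114, edgeR quasi-likelihood test). Leaving out any one library kept the call, with adjusted p between 0.0045 and 0.0393, and a fit over the libraries of both tissues, in which the wider spread of the adipose libraries enters, gave the same log2 value with an adjusted p of 0.227.

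The next 4 genes by p missed the threshold. Hk2 (chromosome 6, 82725025 to 82774454) had 382, 450 and 536 CPM as lowest, median and highest in F11 hearts, against 364, 382 and 402 CPM in GFP hearts (log2 0.23, SE 0.06, adjusted p = 0.0662). The overlap came from L40, whose value was the lowest of the F11 libraries, and without L40 the adjusted p was 0.0131. Slc16a1 (chromosome 3, 104638668 to 104658462) had 254, 298 and 353 CPM in F11 hearts, against 227, 250 and 286 CPM in GFP hearts, with overlapping groups (log2 0.24, SE 0.06, adjusted p = 0.0951). Pgam2 had 368, 408 and 439 CPM in F11 hearts, against 311, 350 and 383 CPM in GFP hearts (log2 0.20, SE 0.05, adjusted p = 0.0922), and Pgam1 had 65.5, 72.4 and 78.7 CPM, against 60.9, 63.1 and 69.6 CPM (log2 0.16, SE 0.05, adjusted p = 0.133). In each of these 4 genes every F11 library exceeded the GFP median while the groups overlapped.

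**Figure D2:**
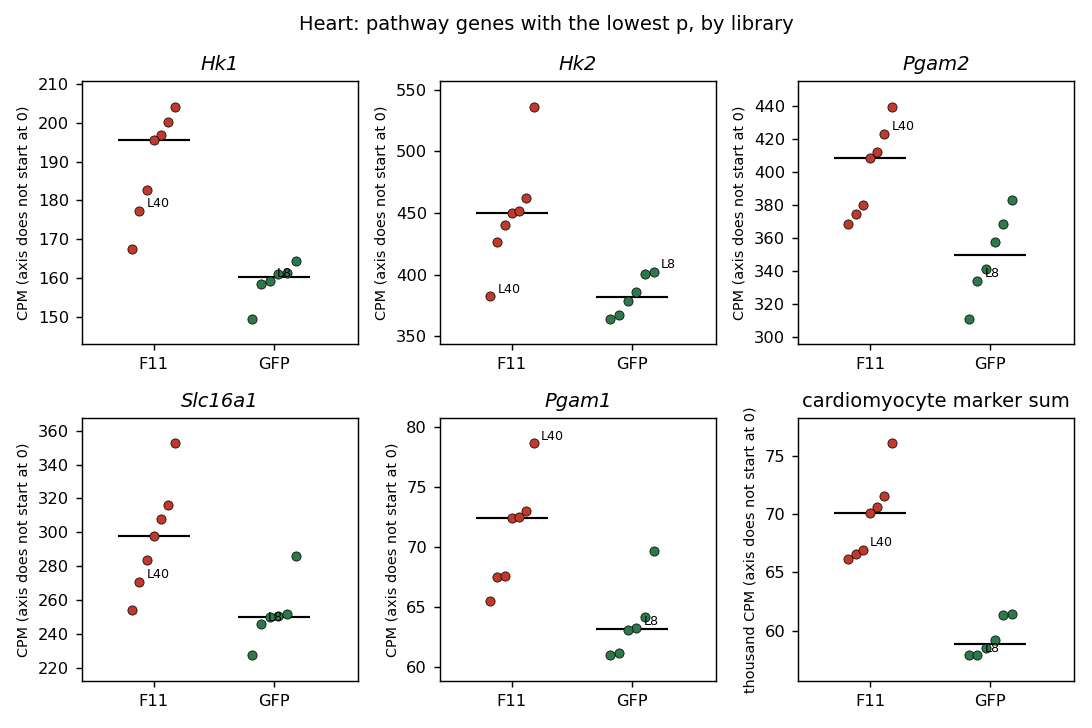
CPM by library in heart (vertical axes, which do not start at 0) for the 5 pathway genes with the lowest p and for the sum of 9 cardiomyocyte markers (scaled down as its axis states). Each point is a library, F11 left of GFP, and bars are medians. Hk1 separates the groups completely, as does the marker sum, while the F11 and GFP points of the other 4 genes overlap.

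Of 9 markers of the cardiomyocyte, 1 was called with the vector in the same hearts, where 0.872% of all genes tested were called. The sum of the 9 was 66161 to 76076 CPM in F11 hearts and 57882 to 61419 CPM in GFP hearts, without overlap. Myh6, the main myosin heavy chain of the adult mouse heart, made up most of the sum and was the one that passed (log2 0.30, SE 0.04, adjusted p = 0.00192). Without it the sum of the other 8 was 26123 to 31635 CPM in F11 hearts and 24968 to 28679 CPM in GFP hearts, with overlap. All 9 had a positive log2 fold change, between 0.05 and 0.78 with a median of 0.10, and the other 8 did not pass (lowest adjusted p 0.119). None of the 9 was at 0 in any heart library. The part of these markers in the values of Hk1 and the other genes was not tested. The red cell markers, high in L40 and L8, had negative fold changes that did not pass (5 of 5 tested, lowest adjusted p 0.913). The 7 mesothelial markers summed to 7.19 to 17.0 CPM in F11 hearts and 16.6 to 27.9 CPM in GFP hearts, with overlap between L38 and L8, and all 7 had negative fold changes that did not pass (median log2 -1.14, lowest adjusted p 0.166). The 6 atrial markers summed to 368 to 3743 CPM in F11 hearts and 52.3 (L8) to 4284 CPM (L1) in GFP hearts. Of 5 atrial markers tested, 0 were positive and 0 were called (median log2 -0.37, lowest adjusted p 0.863). Of 6 white adipocyte markers tested, 1 was positive and 0 were called (median log2 -1.28, lowest adjusted p 0.122 for Plin1). The part of mesothelial, atrial or white fat cells in the values of the pathway genes was not tested. Without L8 and L40, 2 of the pathway genes were called, Hk1 and Hk2 (log2 0.28, adjusted p = 0.0162). In that fit 99 of all genes tested were called higher and 51 lower.

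By role, both hexokinases, all 6 upper and all 7 lower glycolytic genes tested had positive fold changes in heart, with medians of 0.24, 0.07 and 0.06 on the log2 scale. Beside Hk1, Hk2, Pgam1 and Pgam2, given above, Pfkp (log2 0.21, SE 0.07, adjusted p = 0.144), Gapdh (log2 0.14, SE 0.05, adjusted p = 0.19) and Gpi1 (log2 0.10, SE 0.04, adjusted p = 0.254) had unadjusted p under 0.05. Gpi1, at 503 to 550 CPM in F11 hearts against 465 to 497 CPM in GFP hearts, was the other gene without overlap between the groups. Eno3, Pkm, Pgk1 and Pfkm had log2 fold changes between 0.01 and 0.04. Of 5 genes of pyruvate entry, 4 had negative values (median log2 -0.03), and the fifth, Pdk2, had 427, 472 and 496 CPM in F11 hearts against 419, 432 and 444 CPM in GFP hearts (log2 0.11, SE 0.04, adjusted p = 0.24). Of the lactate genes Ldha (log2 -0.02, 95% interval -0.13 to 0.10) and Ldhb (log2 0.03, 95% interval -0.07 to 0.13) lay near 0. Of 5 glycogen genes 4 were positive, led by Ugp2 (log2 0.16, SE 0.09, adjusted p = 0.535) and Pygm (log2 0.09, SE 0.04, adjusted p = 0.356), and Pygb was negative (log2 -0.04). Of the 4 Pfkfb genes 2 were positive and 2 negative. By merged exon length, isozyme shares in F11 hearts stayed near those of GFP hearts, for example 93.1% against 92.9% for Pgam2 and 82.9% against 82.4% for Ldhb at the median. With the median transcript length, Ldha held 33.4% of the pair in GFP hearts.

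The promoters of the 5 genes with the lowest p in heart are shown to set their sequence beside the values. Each is a RefSeq window (GRCm38.p6) of 300 bases, read 5′ to 3′ on the strand of the gene, from 250 bases before a transcription start to 50 bases after it. Capitals mark every match of ACGTG on either strand (written as ACGTG or CACGT), the core letters shared by hypoxia response elements and by the E-box CACGTG, which contains both of them. Hk1 has a pair of windows, one at the outer start (chr10:62379859-62380158, minus strand) and one at an inner start (chr10:62340372-62340671, minus strand). The others are Hk2 (chr6:82774405-82774704, minus strand), Pgam2 (chr11:5803747-5804046, minus strand), Slc16a1 (chr3:104638414-104638713, plus strand) and Pgam1 (chr19:41911621-41911920, plus strand).
Hk1 outer start: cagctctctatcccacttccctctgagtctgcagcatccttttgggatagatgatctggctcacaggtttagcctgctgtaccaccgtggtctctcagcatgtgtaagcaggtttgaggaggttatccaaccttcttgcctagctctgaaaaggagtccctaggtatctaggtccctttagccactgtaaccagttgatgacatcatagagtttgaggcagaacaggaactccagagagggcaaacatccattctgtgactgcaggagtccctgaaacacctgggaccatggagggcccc
Hk1 inner start: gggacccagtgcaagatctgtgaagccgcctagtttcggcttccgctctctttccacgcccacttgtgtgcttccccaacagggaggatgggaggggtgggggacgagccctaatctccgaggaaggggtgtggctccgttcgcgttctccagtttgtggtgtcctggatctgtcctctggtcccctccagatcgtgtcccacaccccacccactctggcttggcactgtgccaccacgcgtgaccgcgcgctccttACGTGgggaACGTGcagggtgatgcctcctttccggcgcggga
Hk2: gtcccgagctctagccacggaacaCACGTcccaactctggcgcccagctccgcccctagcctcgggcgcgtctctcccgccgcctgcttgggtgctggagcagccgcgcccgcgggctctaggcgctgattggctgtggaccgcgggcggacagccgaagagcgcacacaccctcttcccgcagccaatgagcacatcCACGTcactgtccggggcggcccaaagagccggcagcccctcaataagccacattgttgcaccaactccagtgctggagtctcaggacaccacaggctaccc
Pgam2: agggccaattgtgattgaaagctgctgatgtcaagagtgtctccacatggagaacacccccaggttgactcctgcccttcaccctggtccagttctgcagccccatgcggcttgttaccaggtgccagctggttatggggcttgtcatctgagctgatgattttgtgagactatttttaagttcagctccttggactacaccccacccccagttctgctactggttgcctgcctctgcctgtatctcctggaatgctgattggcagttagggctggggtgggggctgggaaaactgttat
Slc16a1: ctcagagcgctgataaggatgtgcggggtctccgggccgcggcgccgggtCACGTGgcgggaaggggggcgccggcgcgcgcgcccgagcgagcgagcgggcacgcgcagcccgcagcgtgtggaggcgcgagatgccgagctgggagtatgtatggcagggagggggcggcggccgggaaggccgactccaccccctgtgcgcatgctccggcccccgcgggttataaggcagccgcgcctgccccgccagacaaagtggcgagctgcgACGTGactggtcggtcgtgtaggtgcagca
Pgam1: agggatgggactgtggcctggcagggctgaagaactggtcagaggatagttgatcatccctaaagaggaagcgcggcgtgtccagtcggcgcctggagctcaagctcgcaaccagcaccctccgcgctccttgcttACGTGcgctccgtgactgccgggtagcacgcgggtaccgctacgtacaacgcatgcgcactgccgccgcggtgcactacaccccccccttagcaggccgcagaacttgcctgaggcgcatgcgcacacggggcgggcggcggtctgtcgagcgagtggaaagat

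The inner Hk1 window, the Hk2 window and the Slc16a1 window each held 2 runs in capitals, Pgam1 held 1, and the outer Hk1 window and Pgam2 held none. The full E-box occurred once, in Slc16a1. The letters ACGTG were present on either strand in 22 of 55 windows of the 34 genes (40%) and in 6447 of all 32851 RefSeq windows of the same length (19.6%). CACGTG was present in 6 of 55 (10.9%) and in 7.15% of all windows. Counted by gene, 18 of 34 had ACGTG in at least one window, where 21.8% of 27025 symbols did. The 34 genes had more windows each (55 for 34 genes) than all symbols (32851 for 27025), so the rates by gene are not on equal terms. The windows differ in base composition, with 51.3% G and C in the outer and 63.3% in the inner Hk1 window and 73.7% in that of Slc16a1, and a match is a description of the letters and not evidence that a factor binds there.

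In adipose tissue, none of the 34 genes passed in F11 against GFP, and the apparent falls of the muscle isozymes came with 1 library. Over all 15229 genes tested the share called was 0% in either direction by edgeR, with 638 genes at an unadjusted p under 0.05 (4.19%, of which 2.55% with a positive and 1.64% with a negative fold change), and DESeq2 called 7 genes, none of them among the 34. Of the 34 genes, 9 had an unadjusted p under 0.05, all with a negative fold change. The fold change was positive for 6 of 34 genes with L140 and for 17 of 34 without it, where 49.8% and 50.5% of all genes tested had positive values. Without L140, 6 genes had an unadjusted p under 0.05 with a negative fold change (Slc16a1, Tpi1, Ldha, Pfkl, Pgam1 and Eno1, where 1.79% of all genes did) and 2 with a positive one (Pfkm and Pfkfb2, where 4.01% did). The median log2 value of the set was -0.12 with L140 and 0.01 without it.

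**Figure D3:**
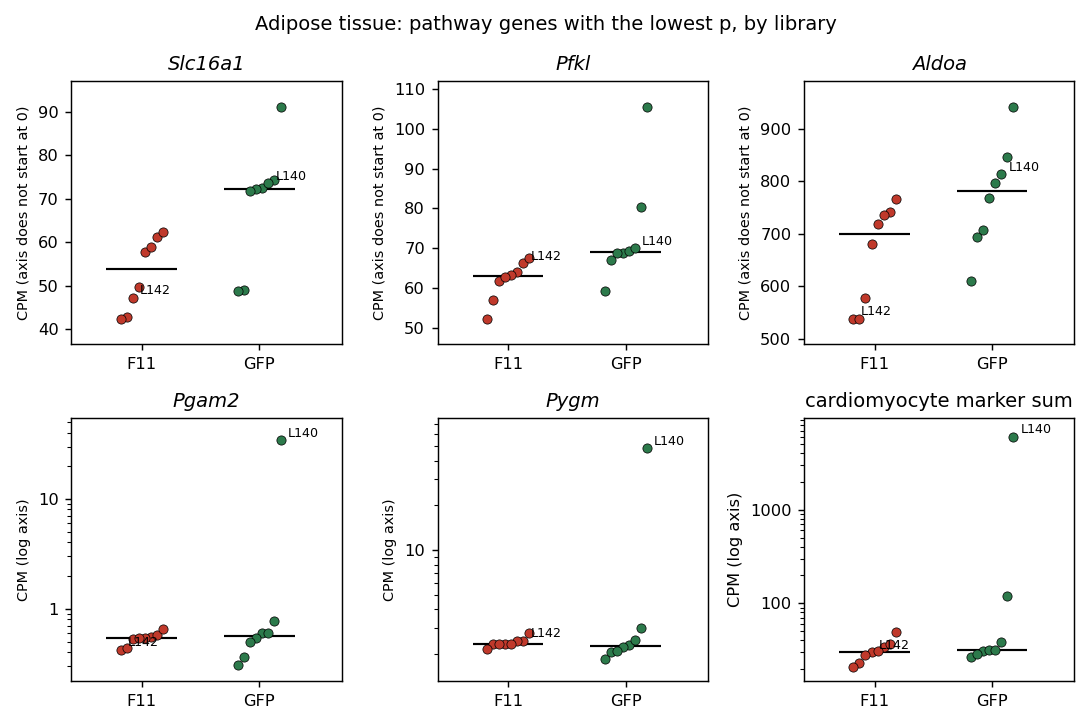
CPM by library in adipose tissue for the 5 pathway genes with the lowest p and for the sum of 9 cardiomyocyte markers, F11 left of GFP, with bars at the medians; the upper axes do not start at 0 and the lower ones are log axes. L140 (GFP) lies far above the rest for Pgam2, Pygm and the marker sum, and within the range of the GFP libraries for Slc16a1, Pfkl and Aldoa.

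Slc16a1, which lets lactate leave or enter the cell, had the lowest p. It had 42.4 CPM at the lowest, 53.7 at the median and 62.2 at the highest in F11 adipose tissue, against 48.8, 72.3 and 91.2 CPM in GFP adipose tissue. All 8 F11 libraries lay under the GFP median, and 6 of the GFP libraries lay above every F11 library, while L136 and L137 lay among the F11 values. The log2 fold change was -0.39 (SE 0.12, 95% interval -0.63 to -0.14, unadjusted p = 0.00661, adjusted p = 0.9996, edgeR), and -0.37 (SE 0.13, adjusted p = 0.811) without L140. These same 2 GFP libraries held 1767 to 5259 CPM of hepatocyte markers, where the GFP libraries other than L136, L137 and L140 held 143.5 to 749.9 CPM and L140 held 1824 CPM. In F11 adipose tissue the hepatocyte sums were highest in L145 and L146, at 4908 and 2858 CPM, and Slc16a1 was at 57.7 and 42.4 CPM there. The part of hepatocyte RNA in the Slc16a1 values was not tested.

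Pfkl had 52.3, 63.0 and 67.6 CPM in F11 adipose tissue, against 59.2, 69.1 and 105.6 CPM in GFP adipose tissue (log2 -0.24, SE 0.09, adjusted p = 0.9996). Aldoa had 538, 700 and 767 CPM in F11 adipose tissue, against 611, 782 and 942 CPM in GFP adipose tissue (log2 -0.22, SE 0.10, adjusted p = 0.9996). In both, every F11 library lay under the GFP median and the groups overlapped. Tpi1, Gapdh and Ldha showed the same layout, with log2 values of -0.24, -0.16 and -0.18 and unadjusted p of 0.0466, 0.0457 and 0.0386. Without L140 the values of Tpi1, Ldha and Pgam1 were -0.29, -0.22 and -0.18, and with L142 left out as well they were -0.28, -0.17 and -0.15, none of which passed (adjusted p = 0.815 for each).

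The muscle isozymes followed L140. Pgam2 had 0.421, 0.544 and 0.65 CPM in F11 adipose tissue, against 0.307, 0.565 and 34.3 CPM in GFP adipose tissue, and the highest of the other 7 GFP libraries was 0.765 CPM. The log2 fold change was -3.17 (SE 1.05, unadjusted p = 0.00822) with L140 and 0.02 (SE 0.19, 95% interval -0.36 to 0.40) without it. Pygm had 2.16, 2.34 and 2.80 CPM in F11 adipose tissue, against 1.85, 2.27 and 48.5 CPM in GFP adipose tissue, with log2 values of -1.76 (SE 0.71) with L140 and 0.07 (SE 0.12) without it. Eno3 had a log2 value of -1.53 (SE 0.67, unadjusted p = 0.0366) with L140 and 0.08 (SE 0.17) without it, and Pfkm had -0.64 (SE 0.45) and 0.26 (SE 0.10, unadjusted p = 0.0267, adjusted p = 0.811). For 7 of the 34 genes the GFP heart mean was at least 10 times the median of the other GFP adipose libraries. In L140 the CPM of these 7 genes above that median came to 7.76% to 18.4% of the GFP heart mean, with a median of 10.03%, and for the 9 cardiomyocyte markers the same quantity was 5.61% to 20.5%, with a median of 10.6%.

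L142, the F11 adipose library with epididymis markers, carried the highest Aldoc value, 10.8 CPM, where the other F11 adipose libraries had 0.485 to 1.30 CPM and the GFP ones 0.535 to 2.82 CPM. It also had the lowest Ldha of the 16 adipose libraries, 324 CPM, and the highest Ldhb of the F11 ones, 48.2 CPM. The part of the epididymis markers in these values was not tested.

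**Figure D4:**
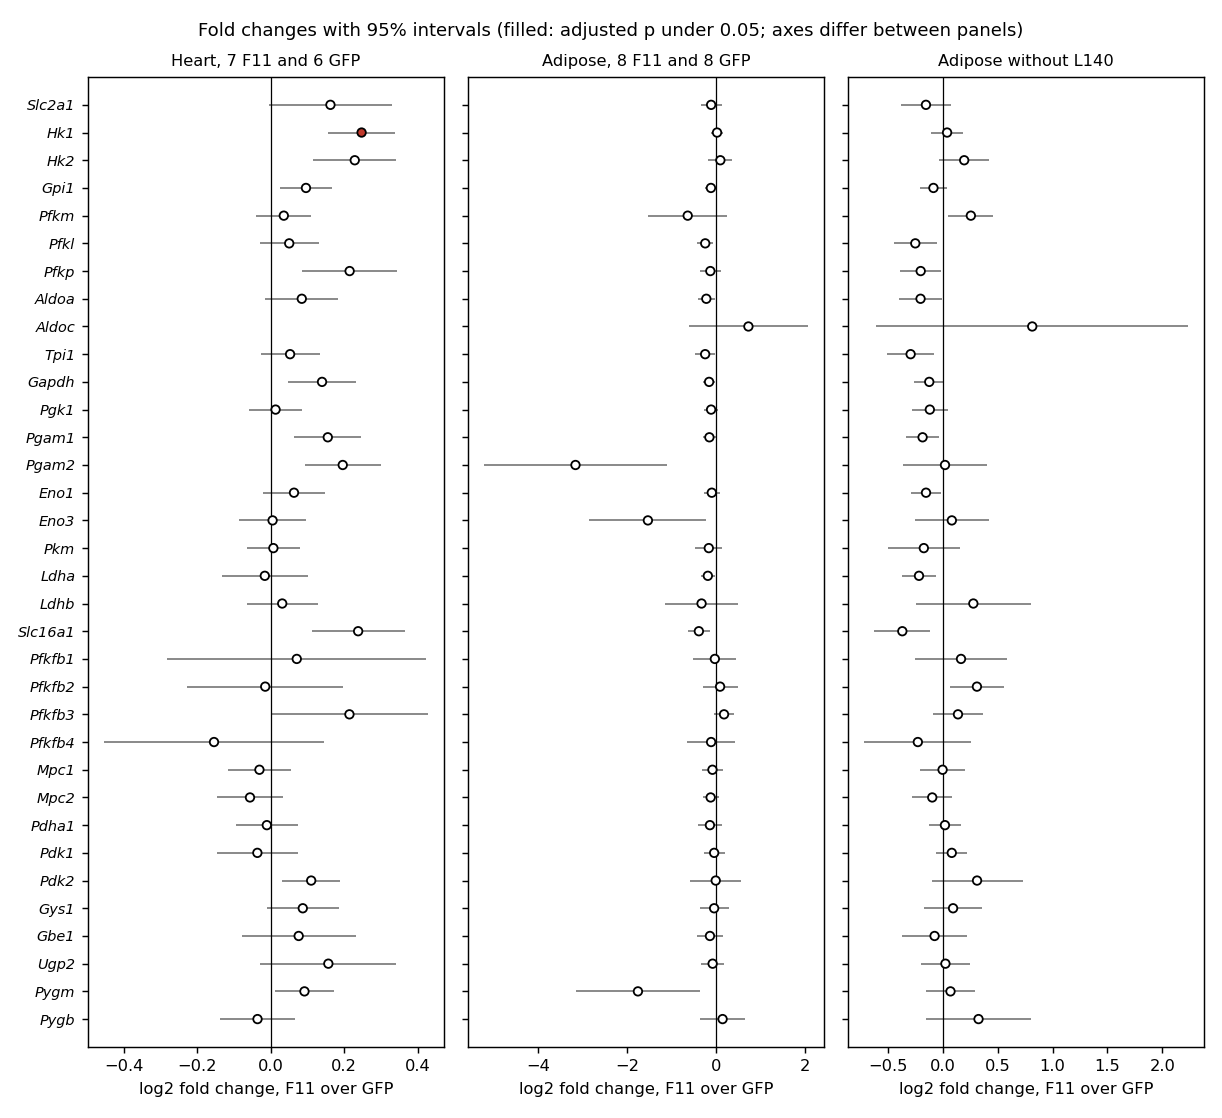
Log2 fold changes of F11 over GFP (points, horizontal axis) with 95% intervals (lines) for each gene in heart, in adipose tissue and in adipose tissue without L140; filled points have an adjusted p under 0.05 and the axes differ in range. Hk1 in heart is the one filled point, and the wide negative values of Pgam2, Pygm and Eno3 in adipose tissue lie near 0 without L140.

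Whether the F11 difference itself differs between the tissues was tested as an interaction over all libraries. None of the 34 genes passed, where 0.0242% of 16526 genes were called (0.0121% in each direction), and 12 genes reached an unadjusted p under 0.05, all with a more positive value in heart, where 7.43% of all genes did, 3.71% in that direction and 3.72% in the other. Slc16a1 had the lowest p: the F11 effect was higher in heart than in adipose tissue by 0.63 on the log2 scale (SE 0.16, unadjusted p = 0.000508, adjusted p = 0.23). Without L140 the difference was 0.60 (SE 0.16, adjusted p = 0.194). DESeq2 called it (adjusted p = 0.0133), as did limma voom (adjusted p = 0.038). DESeq2 also called Pgam2, whose value followed L140: by edgeR it was 3.33 (SE 1.11, adjusted p = 0.402) with L140 and 0.16 (SE 0.17, adjusted p = 0.885) without it. For Hk1 the difference was 0.23 (SE 0.09, adjusted p = 0.534). The values were positive for 30 of 34 genes with L140 and for 22 of 34 without it, against 49.8% and 45.2% of all genes tested.

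The rest of the pathway was read from a list of 55 further genes of glycolysis, glycogen and pyruvate use. In heart 49 of them were tested and none was called. The lowest p belonged to Slc2a4, the insulin-responsive transporter GLUT4, with 306, 347 and 381 CPM in F11 hearts and 304.5, 309 and 334 CPM in GFP hearts (log2 0.15, SE 0.05, adjusted p = 0.125), and to Pgm2l1, which makes glucose 1,6-bisphosphate (log2 0.21, SE 0.07, adjusted p = 0.209). The list had 24 positive values of 49 and a median of -0.00 on the log2 scale, against -0.01 over all genes tested. In adipose tissue 50 were tested and none was called, with 24 positive values and a median of -0.01. The lowest p there were those of Dlat, the E2 subunit of pyruvate dehydrogenase (log2 -0.28, SE 0.10, adjusted p = 0.9996), and Pdk4, a pyruvate dehydrogenase kinase (log2 -0.39, SE 0.17, adjusted p = 0.9996). Between GFP hearts and GFP adipose tissue, 29 of 51 were higher and 18 lower in heart, and without L140 32 of 50 were higher and 17 lower, shares to be read against the 81.4% and 82.4% of all genes called. Among them Pdk4 had 1610, 2017 and 2582 CPM in GFP hearts against 83.3, 112 and 120 CPM in GFP adipose tissue (log2 4.31, SE 0.13, adjusted p = 1.07e-12), and Pcx, the pyruvate carboxylase that feeds oxaloacetate, had 30.2, 34.8 and 37.9 CPM against 468, 591 and 680 CPM (log2 -4.06, SE 0.11, adjusted p = 4.08e-13). Tigar, a fructose 2,6-bisphosphatase, was higher in heart (log2 2.57, SE 0.07).

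Of 21 regulators of these genes, all tested in heart, 1 passed, where 0.872% of all genes tested were called. Hif3a, a hypoxia-inducible factor subunit, had 2.30, 3.91 and 5.34 CPM in F11 hearts against 1.07, 1.18 and 1.46 CPM in GFP hearts (log2 1.59, SE 0.20, adjusted p = 0.000396). The groups did not overlap, and 0.586% of all genes tested were higher without overlap. In adipose tissue none passed, and the lowest p was that of the coactivator Ppargc1a, whose log2 value was -0.79 (SE 0.42, adjusted p = 0.9996) with L140 and -0.15 (SE 0.24) without it. Between the GFP tissues 11 were higher and 8 lower in heart, again beside 81.4% of all genes called. The pair with the lowest p were Esrra, a nuclear receptor of oxidative genes (log2 2.70, SE 0.06, adjusted p = 1.64e-13), and Egln1, an oxygen-sensing prolyl hydroxylase (log2 3.07, SE 0.13, adjusted p = 1.56e-11), both higher in heart.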

How the data were processed

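Per the labels' protocols, a miRNeasy kit yielded the RNA and the Nugen Universal Plus mRNA kit the libraries. The authors deposited estimated counts per gene, without scaling to library size, made with kallisto 0.46 on GRCm38.p6, per the submitters' processing notes. The sources used here give neither the annotation, nor the strand setting, nor how transcripts became genes, and overlapping genes cannot be told apart with certainty. Not whole were 30.77% of the values. Of 30 labelled libraries 29 were used, and L10, a GFP heart, was not analysed here. No library repeated another (lowest chi-square per degree of freedom within a group 3.52).

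The 34 genes were matched by symbol, and for Aldoa the Ensembl ID at the RefSeq gene was kept. The genes and lists were chosen with earlier results of these data known. Estimated counts were rounded and tested with edgeR 4.0.16 in R 4.3.3 (filterByExpr, TMM, robust quasi-likelihood test, two-sided, Benjamini-Hochberg over all genes tested, threshold 0.05), in each tissue, between the GFP groups of the tissues and as an interaction. Adjusted p-values are from this test unless another tool is named. CPM are scaled by TMM over the 29 libraries, and CPM per kb divide by the merged exon length of GENCODE M21. Isozyme shares have no test and count only isozymes among the 34 genes. Near-copies are genes that hold at least 5% of the 31-base stretches of one of the 34. Named are genes called in F11 against GFP, the 5 with the lowest p in each tissue, and the isozymes of each step between the tissues. Other genes given with values in those comparisons were picked once their values were known. Alternatives were other size factors and filters, DESeq2 1.42.0, limma 3.58.1 (voom with quality weights), a threshold of 0.1, no transcripts of the mitochondrial genome, a fit over all libraries and leaving out each library. Fits without L8, L40, L140 and L142 in sets, near-copies summed and a principal transcript length were added after seeing the data. The fits were tested on simulated data.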

Additional observations from a re-analysis of the deposited data

Results flagged for a closer look

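Each of the 34 genes was examined in each of the 4 groups for a library whose gap to its neighbour was large against the range of the group. A gap of this kind was found 17 times. Chance flags about 1 in 20 groups.

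The GFP adipose library L140 accounted for 9 of them. It had 34.3 CPM of Pgam2 (group median 0.565), 48.5 CPM of Pygm (2.27), 90.0 CPM of Eno3 (5.16), 119.1 CPM of Pfkm (16.0), 130.8 CPM of Ldhb (29.1), 22.3 CPM of Pfkfb2 (9.87), 341.5 CPM of Pdha1 (178), 57.3 CPM of Pdk1 (34.5) and 115.0 CPM of Pdk2 (36.8). The F11 adipose library L142 accounted for 2, with 10.8 CPM of Aldoc (0.728) and 323.6 CPM of Ldha (458). In the other F11 adipose libraries, L148 had 15.6 CPM of Slc2a1 (10.4) and L146 had 2.80 CPM of Pygm (2.34). In GFP adipose tissue L135 had 105.6 CPM of Pfkl (69.1).

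In heart, the F11 library L40 had 2493 CPM of Gapdh (group median 2168), the GFP library L6 had 69.6 CPM of Pgam1 (63.1) and the GFP library L8 had 565.2 CPM of Ldha (458). L148 had the highest macrophage marker sum of the adipose libraries, 5549 CPM, against 793 to 2816 CPM in the other F11 adipose libraries.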

How the results depend on the processing

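In heart the number of genes called with F11 was 4 at a threshold of 0.1, 5 by DESeq2 (Hk1, Hk2, Pgam2, Slc16a1 and Gpi1), 3 by limma voom, 0 in the fit over all libraries and 2 without L8 and L40, against 1 as reported. Leaving out one library gave 1 to 2, with 2 without L38 (Slc16a1 added) and without L40 (Hk2 added). Hk1 was called in each of these but the fit over all libraries. In adipose tissue the number called was 0 in every alternative run. The number of positive fold changes there was 6, and 10 by DESeq2, 16 by limma voom, 16 without L140 and L142 and 5 to 17 without one library, the 17 being without L140. The log2 fold change of Pgam2 there reversed to 0.038 by DESeq2 and 0.054 without L140 and L142, and without one library ranged from -3.35 to 0.020, the positive value being without L140. That of Pygm reversed to 0.074 by DESeq2, 0.012 by limma voom and 0.057 without L140 and L142, and without one library ranged from -1.91 to 0.070, again positive without L140. In the tissue difference of the F11 effect, 2 genes were called by DESeq2 (Slc16a1, and Pgam2, which rests on L140) and 1 by limma voom (Slc16a1), against 0 as reported. Over all genes tested, DESeq2 called 122 higher and 48 lower and limma voom 10 and 14, against 2 and 2 as reported. Between the GFP tissues 30 genes were called, and 30 to 31 without one library. Other size factors, filters, near-copies summed and transcripts of the mitochondrial genome left out changed no count by over 1.5 times. The cause of these changes was not tested. The number of steps with another leading isozyme was 5 under each length. No paired analysis was possible because the groups share no library numbers. Genes near 1 CPM, such as Pgam2, Pygm and Aldoc in adipose tissue and Aldoc in heart, rest on few counts.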

Other observations

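The copies of Gapdh were not alike between the tissues. The processed pseudogene Gm7336, which holds 26.5% of the 31-base stretches of Gapdh, was assigned 402 ± 51.3 CPM in F11 hearts (SD, n = 7) and 387 ± 50.7 CPM in GFP hearts (SD, n = 6), against 6.08 ± 3.52 CPM in F11 and 7.00 ± 2.77 CPM in GFP adipose tissue (SD, n = 8 each). Gm10359 and Gm12671 had the same lowest, median and highest values in each of the 4 groups, 142.5 ± 16.6 CPM each in F11 hearts and 157.4 ± 11.6 CPM in GFP hearts. A copy of Eno1, Gm4735, ran the other way, with 0 to 0.44 CPM in F11 hearts and 0 to 0.487 CPM in GFP hearts, against 14.1 to 55.1 CPM in F11 and 17.5 to 65.5 CPM in GFP adipose tissue. A copy of Pgk1, Gm5537, had a median of 22.8 CPM in F11 hearts and 21.0 CPM in GFP hearts, against 0.465 CPM in F11 and 2.73 CPM in GFP adipose tissue. How much of these values is transcription of the copies was not tested.

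In F11 adipose tissue, L148, with 5549 CPM of macrophage markers, had the highest Pkm (448 CPM) and Pfkfb4 (49.5 CPM) and the lowest Ldhb (11.4 CPM). In GFP adipose tissue, L133, with 4664 CPM of macrophage markers, had the highest Pkm (414 CPM) and Pfkfb4 (48.4 CPM) and the lowest Ldhb (12.9 CPM). The libraries with the least macrophage markers, L142 among F11 (793 CPM) and L140 among GFP (504 CPM), had 229 and 293 CPM of Pkm. The part of macrophages in these values was not tested.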
